A study of Homo sapiens with 12 samples.

Results

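The genes described here are 10 members of the integrated stress response that centres on the transcription factor ATF4 and on amino acid supply: ATF4, DDIT3, DDIT4, TRIB3, CHAC1, SESN2, ASNS, PSAT1, PHGDH and SLC7A5. They were taken by symbol from gene count tables of 44700 genes, and 10 of 10 were among the 15810 genes that passed the filter on low counts. The RNA came from the human melanoma lines MALME-3M and SK-MEL-5, cultured with or without interferon gamma (IFN-γ), a cytokine made by T cells and NK cells on activation. The 12 libraries formed 4 groups of 3: SK-MEL-5 cells given IFN-γ at 150 ng/mL for 24 h, untreated SK-MEL-5 cells, MALME-3M cells given IFN-γ at 200 ng/mL for 24 h, and untreated MALME-3M cells. Every library carried the genotype label WT, and treatment began at the seeding of triplicate wells. Nothing says that the wells were separate experiments, so the p-values measure a spread between libraries that may be technical. MALME-3M was grown in Iscove's medium and SK-MEL-5 in Eagle's minimum medium with added pyruvate and L-glutamine, and the serum share differed too. Line, medium and dose cannot be told apart in any comparison between the lines. Both are established lines carried in culture, so each stands for 1 tumour.

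The integrated stress response begins with kinases that sense amino acid shortage, unfolded protein, double-stranded RNA or lack of haem and phosphorylate the translation initiation factor eIF2. General translation then falls while the mRNA of ATF4 is translated more, so that ATF4 protein can change without a matching change of its mRNA. ATF4 binds C/EBP-ATF response elements and switches on genes that make, import and spare amino acids, and, with its partner CHOP (the product of DDIT3), genes that curb growth or favour cell death. RNA counts report on the mRNA levels of these genes and not on eIF2 phosphorylation or on the ATF4 protein.

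The change with IFN-γ differed between the lines for 3 of the 10 genes, ASNS, PSAT1 and PHGDH, by the test of the difference given below. In SK-MEL-5, 5 of the 10 were called higher after IFN-γ and 0 lower, led by CHAC1 at 3.42-fold and ASNS at 1.35-fold, and all 10 log2 fold changes were above 0. In MALME-3M, 0 were called higher and 2 lower, PHGDH at 0.69-fold and PSAT1 at 0.836-fold of the untreated level. ATF4 mRNA itself was not called in either line. A gene was called when edgeR's quasi-likelihood test gave a p below 0.05 after Benjamini-Hochberg adjustment over the 15810 genes. Of all those genes the test called 13.0% in SK-MEL-5 (5.98% higher and 7.05% lower) and 18.3% in MALME-3M (9.51% higher and 8.77% lower). The median log2 fold change of the 10 genes was 0.24 in SK-MEL-5 and −0.08 in MALME-3M, beside medians of −0.03 and 0.00 over all genes tested.

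Each library held 15514412 to 22921184 counts on genes, and 21389 to 23365 genes had a count above 0. Levels below are CPM (gene counts per 1e6 counts) on library sizes scaled by TMM, given for replicates 1, 2 and 3 of a group in that order. The labels give no replicate numbers, so these were assigned here in the order of the samples. Equal numbers do not pair libraries between groups. The treatment check was met in both lines: 6 of 6 interferon target genes were called higher in each. TAP1, a subunit of the transporter that feeds peptides to class I molecules, had 388.6 ± 13.1 CPM in treated and 20.48 ± 2.04 CPM in untreated SK-MEL-5 cells (SD, n = 3 each), and 360.4 ± 34.4 against 25.22 ± 1.98 CPM in MALME-3M. All 8 melanocyte lineage markers on the marker list stood at 1 CPM or more in every group. Their sum was 5740 to 5890 CPM in treated against 6080 to 6430 CPM in untreated SK-MEL-5 libraries, and 5840 to 6210 against 6280 to 6310 CPM in MALME-3M. The 8 fibroblast markers summed to 131 to 136 CPM in treated and 162 to 189 CPM in untreated SK-MEL-5, nearly all of it LUM, and to 15.5 to 18.1 and 19.2 to 20.2 CPM in MALME-3M. In untreated libraries COL1A2 in SK-MEL-5 and PDGFRA in MALME-3M had 0 counts. The 8 leukocyte markers summed to at most 1.37 CPM. The 7 epithelial and endothelial markers summed to 2.08 to 2.21 CPM in treated and 2.93 to 10.9 CPM in untreated SK-MEL-5, and to 321 to 366 and 399 to 402 CPM in MALME-3M. The MALME-3M sums were mostly CDH1, at 325 ± 24.9 CPM in treated and 381 ± 0.488 CPM in untreated cells. The keratin genes KRT18 and KRT8 also averaged above 1 CPM in both MALME-3M groups, at 15.4 ± 3.24 and 4.22 ± 0.951 CPM in treated cells. EPCAM, PECAM1, VWF and CDH5 each averaged under 1 CPM in MALME-3M. The marker sums moved with treatment, and their part in the results below was not tested. In bulk RNA, fewer cells that express a gene and less of its RNA per cell cannot be told apart.

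The upstream sequences are shown for the pair of genes with the smallest p in SK-MEL-5, CHAC1 and ASNS, because each holds the core of a C/EBP-ATF response element, and for ATF4 for comparison. They are RefSeq sequences on GRCh38.p14, the 250 bases before a transcription start annotated in RefSeq, on the gene's own strand. The CHAC1 stretch is chr15:40953221-40953470 on the plus strand, the ASNS stretch chr7:97872409-97872658 on the minus strand and the ATF4 stretch chr22:39520309-39520558 on the plus strand. Capitals mark the letters that match TGATGNAA, the core searched on both strands.
CHAC1: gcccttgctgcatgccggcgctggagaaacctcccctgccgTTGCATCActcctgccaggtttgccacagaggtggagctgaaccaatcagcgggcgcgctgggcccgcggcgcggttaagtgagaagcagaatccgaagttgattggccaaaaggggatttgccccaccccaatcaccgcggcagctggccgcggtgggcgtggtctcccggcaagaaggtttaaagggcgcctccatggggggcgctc
ASNS: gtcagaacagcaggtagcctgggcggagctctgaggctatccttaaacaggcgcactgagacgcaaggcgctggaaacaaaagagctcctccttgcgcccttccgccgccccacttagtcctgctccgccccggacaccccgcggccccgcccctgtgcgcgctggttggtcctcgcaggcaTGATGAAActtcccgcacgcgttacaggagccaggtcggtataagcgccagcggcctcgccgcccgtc
ATF4: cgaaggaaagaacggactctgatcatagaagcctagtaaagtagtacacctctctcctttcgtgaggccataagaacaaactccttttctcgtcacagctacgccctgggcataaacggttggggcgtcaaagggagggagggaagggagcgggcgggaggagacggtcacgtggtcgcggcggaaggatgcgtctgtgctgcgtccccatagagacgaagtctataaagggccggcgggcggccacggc
In ASNS the match reads TGATGAAA on the gene's strand, with its first base 68 bp upstream of the start. In CHAC1 it lies on the opposite strand, where it reads TGATGCAA, and its far end is 209 bp upstream. All 10 genes had RefSeq windows, 15 in all, and the windows of the other 8 genes, which run from 250 bases before to 50 after each start, did not hold the core. It occurs in 3.617% of 35116 such windows, or in 4.457% of 27305 genes. A match describes letters and shows no binding.

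ATF4 (chromosome 22, 39519695 to 39522685, plus strand, GENCODE 29 on GRCh38) had 275.8, 293.5 and 264.6 CPM in treated SK-MEL-5 cells, against 249.8, 270.2 and 262.4 CPM in untreated cells. In MALME-3M it had 231.1, 241.0 and 239.6 CPM in treated and 256.5, 240.8 and 239.0 CPM in untreated cells. The groups overlapped in both lines. The log2 fold change was 0.09 ± 0.0496 (SE; 95% interval −0.01 to 0.20; adjusted p = 0.272) in SK-MEL-5 and −0.05 ± 0.0497 (−0.15 to 0.06; adjusted p = 0.569) in MALME-3M, so that the intervals leave room for small changes only. The test of the difference between these changes gave −0.14 ± 0.0702 (adjusted p = 0.331).

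**Figure D1:**
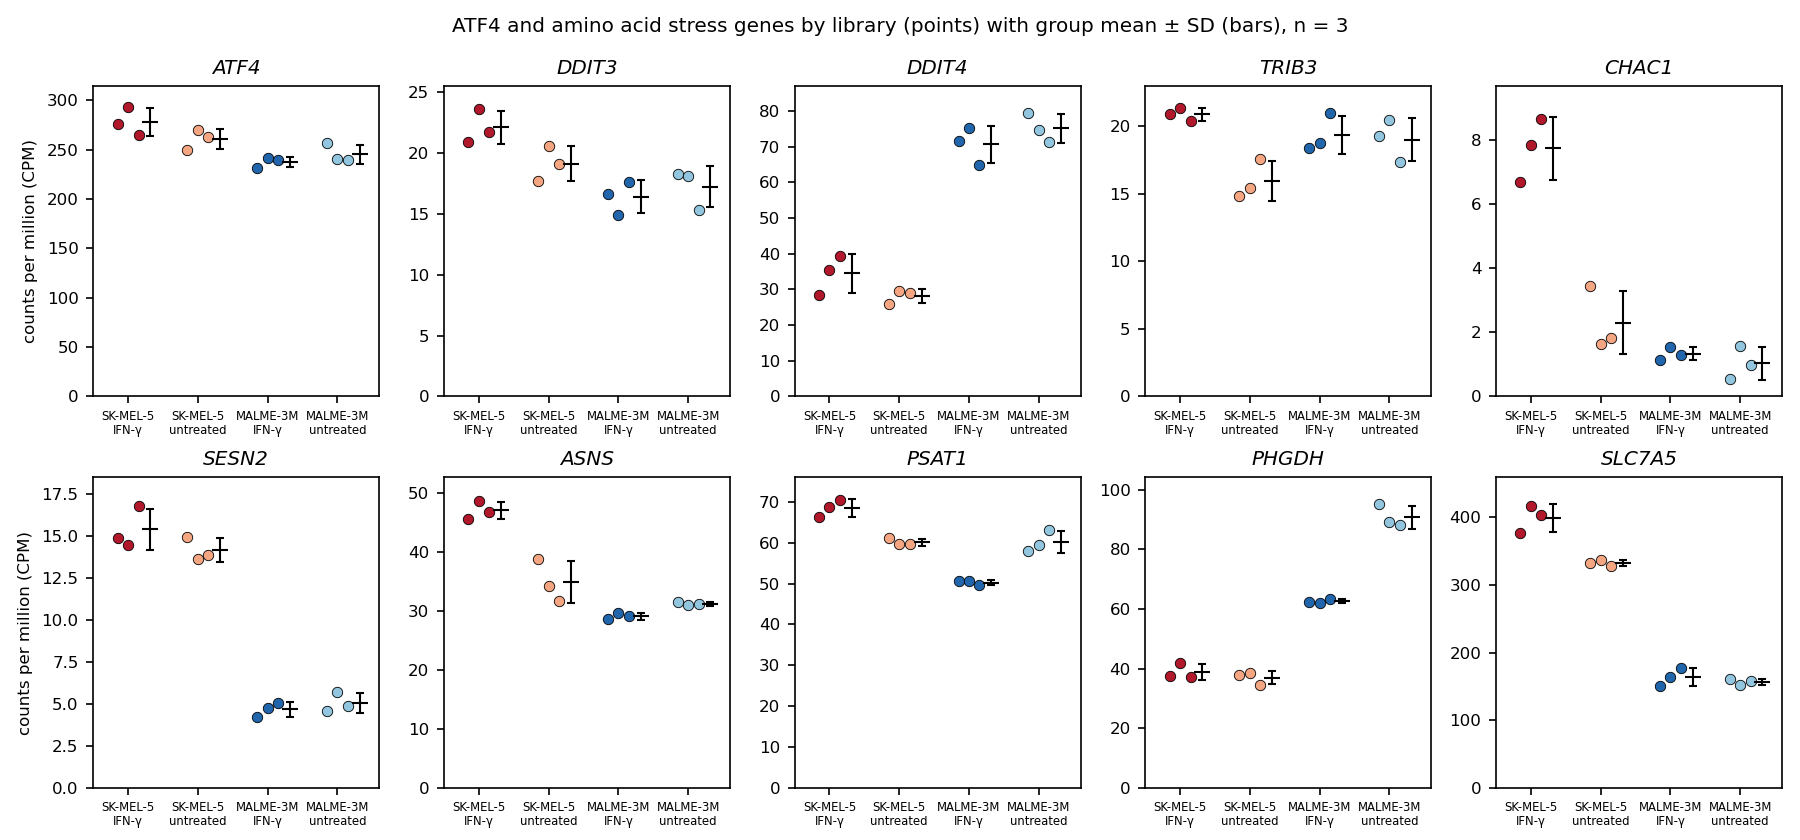
Level of each of the 10 genes in CPM (vertical axes, from 0) in each of the 12 libraries (points), with the group mean and SD (bars, n = 3), for treated and untreated SK-MEL-5 and treated and untreated MALME-3M. CHAC1, TRIB3, ASNS, PSAT1, SLC7A5 and DDIT3 are higher in all 3 treated than in all 3 untreated SK-MEL-5 libraries. PSAT1, PHGDH and ASNS are lower in all 3 treated than in all 3 untreated MALME-3M libraries. Of these changes, those of DDIT3 in SK-MEL-5 and ASNS in MALME-3M were not called.

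Among the stress regulators downstream of ATF4, CHAC1 changed most. It encodes an enzyme that breaks down glutathione and is a known target of ATF4. CHAC1 (chromosome 15, 40952962 to 40956519, plus strand) had 6.701, 7.860 and 8.662 CPM in treated SK-MEL-5 cells, against 3.434, 1.648 and 1.825 CPM in untreated cells, from 133 to 146 and 36 to 54 counts per library. Every treated library was above every untreated one, and the first untreated library was the highest of its group. The log2 fold change was 1.77 ± 0.279 (95% interval 1.19 to 2.36; adjusted p = 0.000179), and it stayed called when any 1 of the 12 libraries was left out (1.57 to 2.15). In MALME-3M CHAC1 was near the lower end of what these libraries measure, at 1.142, 1.545 and 1.301 CPM in treated and 0.5412, 1.567 and 0.989 CPM in untreated cells, from 9 to 33 counts. The groups overlapped there, and the change of 0.37 ± 0.36 (−0.38 to 1.13; adjusted p = 0.543) has an interval that holds 0 and a rise of 2-fold.

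TRIB3 encodes a pseudokinase that ATF4 and CHOP induce and that in turn restrains them. TRIB3 (chromosome 20, 362835 to 397559, plus strand) had 20.88, 21.32 and 20.39 CPM in treated SK-MEL-5 cells, against 14.82, 15.41 and 17.59 CPM in untreated cells, with no overlap. It rose by 0.39 ± 0.0974 on the log2 scale (adjusted p = 0.0114). Without untreated SK-MEL-5 replicate 2 the adjusted p was 0.0586. In MALME-3M TRIB3 had 18.39, 18.73 and 20.95 CPM in treated and 19.24, 20.44 and 17.33 CPM in untreated cells. The groups overlapped, and the change was 0.03 ± 0.0968 (−0.17 to 0.23; adjusted p = 0.889).

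DDIT4 encodes REDD1, an inhibitor of mTORC1, the kinase complex that couples growth to nutrients. DDIT4 (chromosome 10, 72273920 to 72276036, plus strand) had 28.47, 35.42 and 39.47 CPM in treated and 25.95, 29.43 and 29.05 CPM in untreated SK-MEL-5 cells. The lowest treated library lay inside the untreated range, and the change of 0.28 ± 0.0955 (0.08 to 0.48) missed the threshold at an adjusted p of 0.058. It passed in DESeq2 (adjusted p = 0.0279), with no filter on low counts (0.00481) and without treated SK-MEL-5 replicate 1 (0.00303). With 1 library left out it passed in 3 of 12 refits, and the adjusted p ran up to 0.312. In MALME-3M DDIT4 had 71.63, 75.25 and 64.92 CPM in treated and 79.37, 74.69 and 71.31 CPM in untreated cells, overlapping, with a change of −0.09 ± 0.0891 (−0.28 to 0.10; adjusted p = 0.559).

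DDIT3 and SESN2 were not called in either line. DDIT3, which encodes CHOP (chromosome 12, 57516588 to 57521737, minus strand), had 20.93, 23.63 and 21.75 CPM in treated and 17.68, 20.57 and 19.11 CPM in untreated SK-MEL-5 cells. The lowest treated library was just above the highest untreated one, and the change was 0.21 ± 0.101 (−0.01 to 0.42; adjusted p = 0.215). In MALME-3M the 3 treated libraries spanned 14.94 to 17.63 CPM and the 3 untreated ones 15.30 to 18.28 CPM, with a change of −0.07 ± 0.103 (−0.29 to 0.15; adjusted p = 0.716). DDIT3 overlaps MARS by 982 nt and MBD6 by 1028 nt on the opposite strand, and without a stated strand setting reads of these genes cannot be told apart. SESN2 encodes sestrin 2, a leucine sensor that inhibits mTORC1 (chromosome 1, 28259527 to 28282491, plus strand). It had 14.87, 14.48 and 16.80 CPM in treated and 14.95, 13.63 and 13.89 CPM in untreated SK-MEL-5 cells, overlapping (0.12 ± 0.116, −0.12 to 0.36; adjusted p = 0.588). In MALME-3M it had 4.207, 4.776 and 5.070 CPM in treated and 4.570, 5.727 and 4.893 CPM in untreated cells, also overlapping (−0.11 ± 0.137, −0.39 to 0.18; adjusted p = 0.672).

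The synthesis enzymes moved in different ways in the lines. ASNS, asparagine synthetase, makes asparagine from aspartate and glutamine and is a classic marker of amino acid shortage. ASNS (chromosome 7, 97852118 to 97872542, minus strand) had 45.63, 48.61 and 46.83 CPM in treated SK-MEL-5 cells, against 38.73, 34.29 and 31.69 CPM in untreated cells. All treated libraries were above all untreated ones, and ASNS rose by 0.43 ± 0.0706 on the log2 scale (95% interval 0.28 to 0.58; adjusted p = 0.00027). The rise stayed called when any 1 library was left out, at 0.37 to 0.51. In MALME-3M ASNS had 28.55, 29.69 and 29.07 CPM in treated and 31.45, 30.93 and 31.08 CPM in untreated cells. The treated libraries were all lower there, by a small margin that was not called (−0.10 ± 0.0723, −0.25 to 0.05; adjusted p = 0.411).

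PSAT1 and PHGDH encode enzymes of the serine synthesis pathway: PHGDH takes the first step from a glycolytic intermediate and PSAT1 the next. PSAT1 (chromosome 9, 78297143 to 78330093, plus strand) had 66.27, 68.75 and 70.47 CPM in treated and 61.12, 59.58 and 59.72 CPM in untreated SK-MEL-5 cells, with no overlap. It rose by 0.19 ± 0.0513 on the log2 scale (adjusted p = 0.0195), a call that was lost without untreated SK-MEL-5 replicates 2 or 3 or treated SK-MEL-5 replicates 2 or 3 (adjusted p = 0.0601 to 0.0888) and with no filter on low counts (0.11). In MALME-3M PSAT1 had 50.54, 50.57 and 49.67 CPM in treated and 57.85, 59.44 and 63.04 CPM in untreated cells, again with no overlap but in the other direction. It fell by 0.26 ± 0.0518 on the log2 scale (−0.37 to −0.15; adjusted p = 0.00141).

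PHGDH (chromosome 1, 119648411 to 119744226, plus strand) had 62.44, 62.05 and 63.48 CPM in treated MALME-3M cells, against 95.19, 89.10 and 88.07 CPM in untreated cells. The treated libraries lay close together and far below the untreated ones, and PHGDH fell by 0.53 ± 0.0602 on the log2 scale (−0.66 to −0.41; adjusted p = 2.76e-06). In SK-MEL-5 the groups overlapped, at 37.61, 41.94 and 37.06 CPM in treated and 37.91, 38.61 and 34.47 CPM in untreated cells (0.07 ± 0.0633, −0.06 to 0.20; adjusted p = 0.544). The falls of PSAT1 and PHGDH in MALME-3M held when any 1 library was left out.

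SLC7A5 encodes LAT1, the antiporter that brings in leucine, tryptophan and other large neutral amino acids. SLC7A5 (chromosome 16, 87830023 to 87869488, minus strand) had 377.2, 417.1 and 403.2 CPM in treated SK-MEL-5 cells, against 332.8, 336.3 and 327.4 CPM in untreated cells. All treated libraries were above all untreated ones, and it rose by 0.26 ± 0.055 on the log2 scale (1.2-fold; adjusted p = 0.00262). In MALME-3M it had 150.4, 164.6 and 177.6 CPM in treated and 160.4, 152.4 and 157.6 CPM in untreated cells, overlapping (0.07 ± 0.0558, −0.05 to 0.18; adjusted p = 0.471). Its partner chain SLC3A2, which is not one of the 10, rose in SK-MEL-5, to 246.2 ± 11.5 CPM in treated against 210.5 ± 4.77 CPM in untreated cells (0.23 ± 0.0489; adjusted p = 0.00362). In MALME-3M SLC3A2 averaged 141.5 ± 5.81 and 132.7 ± 2.68 CPM (0.09 ± 0.0495; adjusted p = 0.224).

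Counted by separation of libraries, 6 of the 10 genes had every treated SK-MEL-5 library above every untreated one, where 11.7% of all genes tested did so. In MALME-3M 3 of the 10, PSAT1, PHGDH and ASNS, had every treated library below every untreated one, against 16.5% of all genes. When the transcript tables' estimated counts were summed to genes in place of the gene counts, CHAC1 and ASNS stayed called in SK-MEL-5, while TRIB3 (log2 fold change 0.42, adjusted p = 0.0738), PSAT1 (0.19, 0.116) and SLC7A5 (0.24, 0.332) lost their calls at folds near those from gene counts. In MALME-3M PSAT1 stayed called while PHGDH did not (−0.37, adjusted p = 0.127). Those sums hold 33.9% (PHGDH) to 66.8% (ATF4) of the gene counts of the 10 genes, and 13497 genes were tested from them.

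The changes were then compared between the lines in the same model, as MALME-3M change minus SK-MEL-5 change. All 10 differences were negative, with a median of −0.37 on the log2 scale, beside a median of 0.02 over all genes tested. The test called 3 of the 10 lower, ASNS, PSAT1 and PHGDH, and 0 higher, where it called 4.46% of all genes, 1.79% lower and 2.67% higher. The difference was −0.53 ± 0.101 for ASNS (adjusted p = 0.00351), −0.45 ± 0.0729 for PSAT1 (adjusted p = 0.000857) and −0.61 ± 0.0873 for PHGDH (adjusted p = 0.000236). These are the 3 amino acid synthesis enzymes among the 10. CHAC1 had the largest difference by size, −1.40 ± 0.46 (−2.37 to −0.43), which was not called (adjusted p = 0.103) but passed in DESeq2 (0.0283) and with no filter on low counts (0.0191). For DDIT4 (−0.37, adjusted p = 0.127), TRIB3 (−0.36, 0.175) and SLC7A5 (−0.20, 0.193) the 95% intervals lay below 0 before adjustment and no call was made. The DDIT4 difference passed with no filter (adjusted p = 0.0171) and without treated SK-MEL-5 replicate 1 (0.0127), that of SLC7A5 without treated MALME-3M replicate 3 (0.0255), and that of CHAC1 without untreated replicate 1 of SK-MEL-5 (0.0267) or of MALME-3M (0.0417). Left out singly, other libraries raised the adjusted p to as much as 0.325 for DDIT4, 0.396 for SLC7A5 and 0.355 for CHAC1. The intervals for DDIT3 (−0.58 to 0.03) and SESN2 (−0.60 to 0.15) held 0. With the transcript estimates the ASNS (−0.48, adjusted p = 0.122) and PHGDH (−0.38, 0.472) differences were not called and that of PSAT1 was.

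**Figure D2:**
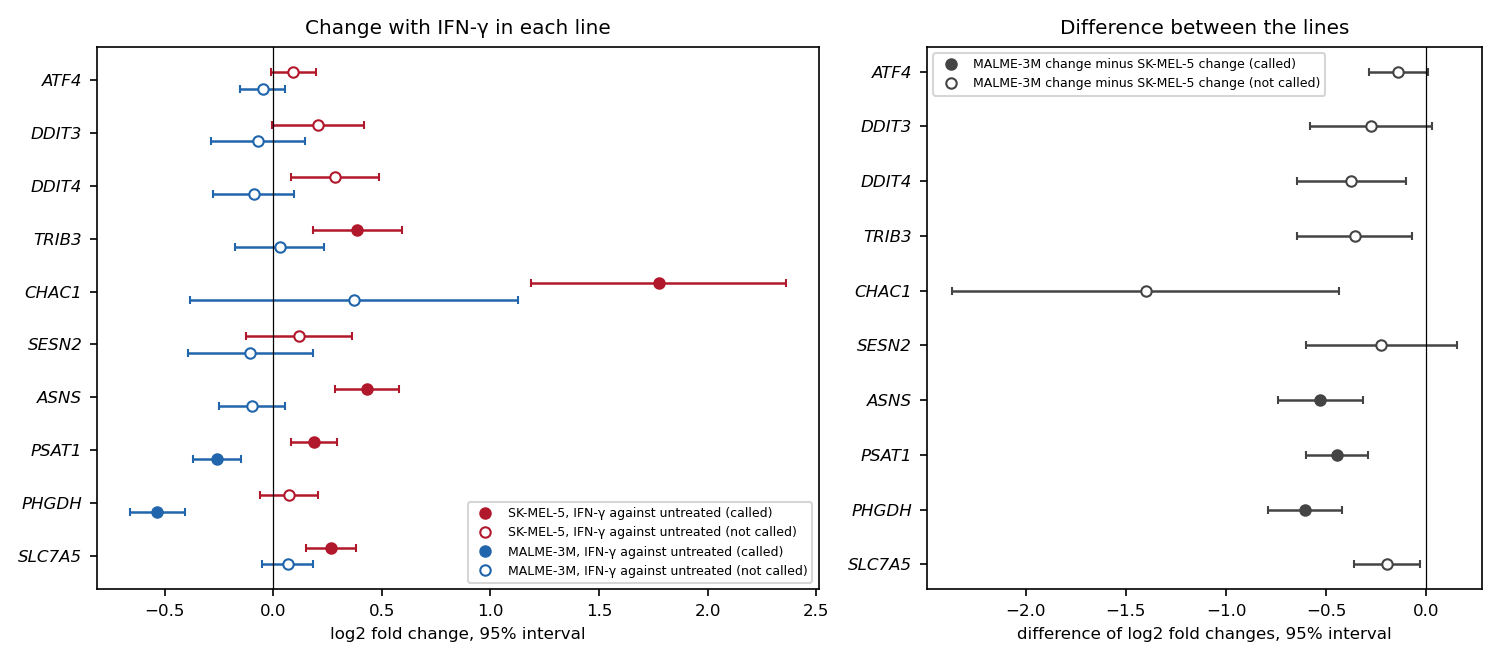
Left, log2 fold change of each of the 10 genes with IFN-γ in SK-MEL-5 (red) and MALME-3M (blue). Right, the MALME-3M change minus the SK-MEL-5 change. Points are estimates, bars are 95% intervals and filled points are called at an adjusted p below 0.05. All 10 SK-MEL-5 estimates are above 0, and filled differences are those of ASNS, PSAT1 and PHGDH.

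Between the untreated lines 6 of the 10 genes were called, 3 higher and 3 lower in MALME-3M, which is no larger a share than among all genes, of which 71.7% were called, 34.5% higher and 37.2% lower. No overlap between the libraries of the lines was seen for 2 of the 10 on the higher side (35.7% of all genes) and 4 on the lower side (38.1%). DDIT4 was higher in MALME-3M, at 75.13 ± 4.05 against 28.14 ± 1.91 CPM (log2 difference 1.41 ± 0.0936, adjusted p = 8.31e-11), and so was PHGDH, at 90.79 ± 3.85 against 37.0 ± 2.21 CPM (1.29 ± 0.062, adjusted p = 5.97e-13). SLC7A5 was lower, at 156.8 ± 4.05 against 332.2 ± 4.47 CPM (−1.08 ± 0.0561, adjusted p = 1.93e-12), as was SESN2, at 5.063 ± 0.597 against 14.15 ± 0.698 CPM (−1.48 ± 0.127, adjusted p = 3.91e-09). CHAC1 was lower, at 1.033 ± 0.514 against 2.302 ± 0.984 CPM (−1.12 ± 0.34, adjusted p = 0.00647; 0.0553 without untreated SK-MEL-5 replicate 1). TRIB3 was higher by a small margin, at 19.0 ± 1.56 against 15.94 ± 1.46 CPM (0.25 ± 0.098, adjusted p = 0.0285), with overlapping groups, and this call was lost when untreated replicates 1 or 2 of either line were left out (0.0647 to 0.118). ATF4 (−0.09, −0.19 to 0.02), DDIT3 (−0.15, −0.37 to 0.06) and ASNS (−0.16, −0.31 to −0.01; adjusted p = 0.0516) were not called. PSAT1 was at 60.11 ± 2.66 and 60.14 ± 0.852 CPM, a log2 difference of 0.00 with an interval of −0.11 to 0.11.

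After IFN-γ, 9 of the 10 genes were called between the lines, 2 higher and 7 lower in MALME-3M, in a comparison that called 71.8% of all genes, 35.4% higher and 36.4% lower. The libraries of the lines did not overlap for these 9, against 37.0% of all genes on the higher and 37.7% on the lower side. This comparison shares its treated libraries with those above. DDIT4 stayed higher in treated MALME-3M, at 70.6 ± 5.24 against 34.45 ± 5.56 CPM (1.04 ± 0.0924, adjusted p = 6.59e-09), and PHGDH at 62.66 ± 0.743 against 38.87 ± 2.67 CPM (0.69 ± 0.062, adjusted p = 8.03e-09). Lower in treated MALME-3M were ATF4, at 237.2 ± 5.37 against 278.0 ± 14.6 CPM (−0.23 ± 0.0496, adjusted p = 0.000428), and ASNS, at 29.1 ± 0.572 against 47.02 ± 1.5 CPM (−0.69 ± 0.0712, adjusted p = 5.38e-08). CHAC1 was lower too, at 1.329 ± 0.203 against 7.741 ± 0.986 CPM (−2.52 ± 0.295, adjusted p = 3.15e-07). PSAT1, whose untreated levels were alike in the mean, was at 50.26 ± 0.515 against 68.5 ± 2.11 CPM (−0.45 ± 0.0515, adjusted p = 2.66e-07). SESN2 (−1.71), SLC7A5 (−1.28) and DDIT3 (−0.43) completed the lower genes, and TRIB3 was not called (−0.11, −0.31 to 0.09).

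Levels can be compared between genes only per transcript length, for which the TPM (transcripts per 1e6 transcripts) of a gene's annotated transcripts were summed within each library. ATF4 led in all 4 groups, at 132.9 ± 12 TPM in treated and 123.6 ± 20.3 TPM in untreated SK-MEL-5, and 106.2 ± 15.6 and 113.0 ± 10.4 TPM in MALME-3M. In SK-MEL-5 SLC7A5 came next, at 48.4 ± 8.0 TPM in treated and 42.56 ± 7.52 TPM in untreated cells, above PSAT1 at 19.03 ± 1.17 and 17.38 ± 1.63 TPM. In MALME-3M DDIT4 took that place, at 24.49 ± 2.96 TPM in treated and 25.76 ± 2.7 TPM in untreated cells. CHAC1 was the lowest of the 10 in untreated SK-MEL-5 (0.9977 ± 0.235 TPM) and in treated (0.5791 ± 0.275) and untreated (0.435 ± 0.166) MALME-3M. In treated SK-MEL-5 it reached 3.468 ± 0.447 TPM and stood above SESN2, at 2.601 ± 0.0424 TPM, in 3 of 3 libraries. In treated SK-MEL-5 the library ranges of neighbours in the order overlapped for PSAT1 and ASNS, ASNS and DDIT3, and PHGDH and TRIB3. In untreated SK-MEL-5 they overlapped for ASNS and DDIT3, DDIT3 and DDIT4, and DDIT4 and PHGDH. In both MALME-3M groups SLC7A5 and PHGDH, PHGDH and PSAT1, and ASNS and DDIT3 overlapped, and in the treated group PSAT1 and ASNS, and SESN2 and CHAC1, as well. Between 46.6% and 57.7% of a library's TPM lay on 1 assembled transcript of 336 nt, so TPM serves here only to order genes within a library. That order has a limit too, as 49.9% to 55.2% of a library's estimated counts lay on annotated transcripts of a named gene. Estimated counts held 33.9% of the gene counts for PHGDH and 56.8% (SLC7A5) to 66.8% (ATF4) for the others. The place of PHGDH in the order is therefore uncertain.

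**Figure D3:**
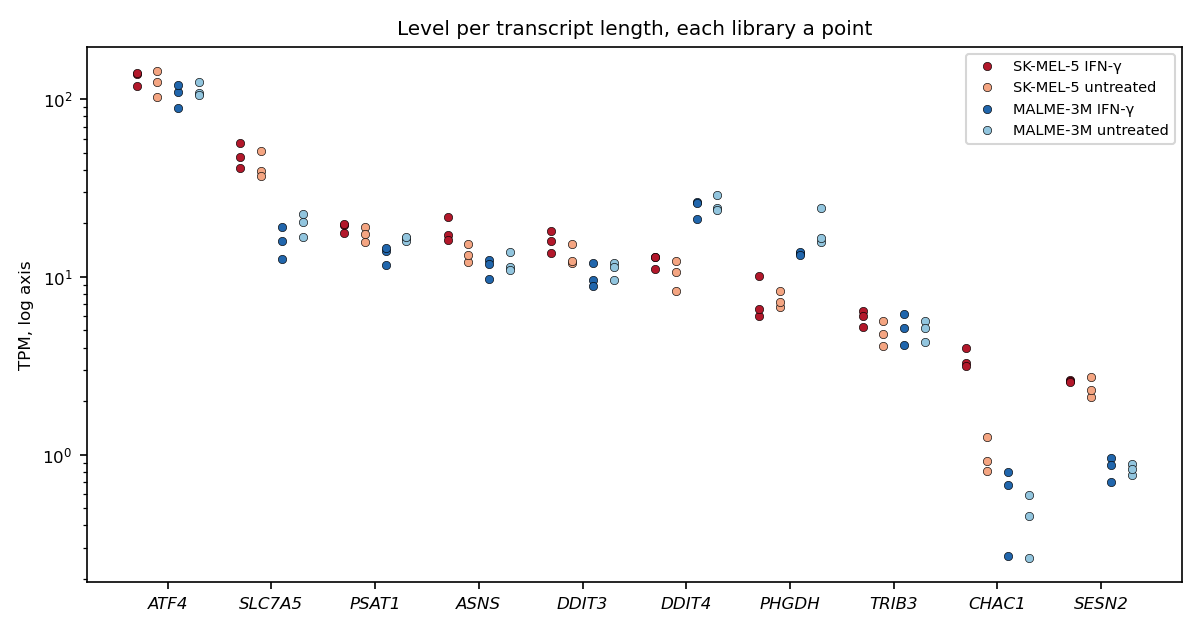
Level per transcript length (TPM, log axis) of the 10 genes, each point 1 library, for treated and untreated SK-MEL-5 and treated and untreated MALME-3M. ATF4 is the highest gene in all 12 libraries, and CHAC1 in treated SK-MEL-5 stands above CHAC1 in the other 3 groups.

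Genes around the 10 were counted from lists of the pathway. The counts of this and the following lists are to be read beside the shares of all genes tested. These were 5.98% called higher and 7.05% lower in SK-MEL-5, and 9.51% and 8.77% in MALME-3M. A count near these shares shows nothing particular to a list. In the list of 18 genes of the eIF2 kinases and their controls, 2 were called higher and 1 lower in SK-MEL-5 and 1 higher and 2 lower in MALME-3M. EIF2AK2, the double-stranded RNA kinase PKR and itself an interferon target, rose in both lines, to 354.9 ± 2.73 against 152.1 ± 10.0 CPM in SK-MEL-5 (1.22 ± 0.0494) and 247.5 ± 7.56 against 170.1 ± 1.61 CPM in MALME-3M (0.54 ± 0.049). Its change was smaller in MALME-3M (difference −0.68 ± 0.0692, adjusted p = 4.49e-06). PPP1R15A, the phosphatase subunit GADD34 that reverses eIF2 phosphorylation, rose by 0.24 ± 0.0632 in SK-MEL-5 (adjusted p = 0.0142), and EIF2B1, a subunit of the eIF2 exchange factor, fell by 0.21 ± 0.0553 there and by 0.18 ± 0.0563 in MALME-3M. EIF2S3, the gamma subunit of eIF2, fell by 0.17 ± 0.0438 in MALME-3M (adjusted p = 0.00936). EIF2AK4, the amino acid sensor GCN2, had changes of −0.12 ± 0.0497 (adjusted p = 0.134) in SK-MEL-5 and 0.03 ± 0.0496 (adjusted p = 0.709) in MALME-3M. These counts moved when single libraries were left out. In SK-MEL-5 the 2 higher became 1 without untreated replicate 3 or treated replicates 2 or 3 and the 1 lower became 0 without untreated replicate 1, treated replicates 1 or 3 or treated MALME-3M replicate 1. In MALME-3M the 2 lower became 1 without any 1 untreated replicate or treated replicates 1 or 2.

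Of 10 genes listed as ATF4 partners and related factors, 5 were called higher in SK-MEL-5 and 4 in MALME-3M, and 0 lower in either. Of all genes tested, 5.98% and 9.51% were called higher. The counts of both lines include BATF2 and BATF3, and a link of their rise to ATF4 was not tested. BATF2 and BATF3, both members of the same bZIP class, rose by 6.98 ± 0.153 and 1.39 ± 0.147 in SK-MEL-5 and by 6.21 ± 0.168 and 4.74 ± 0.238 in MALME-3M. For BATF2 in both lines, and for BATF3 and ATF3 in MALME-3M, the untreated level was under 1 CPM. ATF3, a stress-induced factor, rose by 0.38 ± 0.119 in SK-MEL-5 and by 1.84 ± 0.2 in MALME-3M, and CEBPB, a partner of ATF4 on its response elements, by 0.34 ± 0.0621 and 0.49 ± 0.0618. NUPR1, a stress-induced chromatin protein, rose in SK-MEL-5, to 46.9 ± 1.53 CPM in treated against 20.73 ± 2.67 CPM in untreated cells (1.17 ± 0.11, adjusted p = 2.34e-07). In MALME-3M it had 1.258 ± 0.309 and 1.456 ± 0.227 CPM (−0.20 ± 0.211, adjusted p = 0.615), and the difference between the lines was −1.38 ± 0.24 (adjusted p = 0.00159). Differences between the lines were called for ATF3 (1.46 ± 0.236) and BATF3 (3.34 ± 0.3) as well, in the opposite direction.

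Of 14 tested genes of serine, one-carbon and proline synthesis other than PHGDH and PSAT1, 2 were called higher and 2 lower in SK-MEL-5 and 1 higher and 4 lower in MALME-3M. MTHFD2, the mitochondrial folate enzyme, rose in SK-MEL-5, to 182.1 ± 6.46 against 156.2 ± 6.52 CPM (0.22 ± 0.0542), and fell in MALME-3M, to 96.18 ± 5.44 against 108.7 ± 3.43 CPM (−0.18 ± 0.055). ALDH1L2, a mitochondrial folate dehydrogenase, rose in SK-MEL-5 (0.54 ± 0.144). PSPH, the last enzyme of serine synthesis, fell in both lines, by 0.24 ± 0.0456 in SK-MEL-5 and by 0.16 ± 0.0483 in MALME-3M, and ALDH18A1, the first enzyme of proline synthesis, fell in SK-MEL-5 (−0.26 ± 0.0636). In MALME-3M GOT1, which makes aspartate, fell to 25.76 ± 0.861 against 37.09 ± 2.64 CPM (−0.53 ± 0.0878) and SHMT2, which takes a carbon unit from serine, to 90.89 ± 2.66 against 111.2 ± 2.14 CPM (−0.29 ± 0.0509), while MTHFD1L rose (0.18 ± 0.0521). Beside 1.79% of all genes tested called lower, the difference between the lines was called for 4 of these 14 genes, all lower in MALME-3M. They were MTHFD2 (−0.40 ± 0.0772, adjusted p = 0.0041), GOT1 (−0.47 ± 0.124, 0.0373), ALDH1L2 (−1.0 ± 0.27, 0.0399) and SHMT2 (−0.26 ± 0.0717, 0.0492). All but MTHFD2 were thus near the threshold, and ALDH1L2 averaged only 1.411 CPM in treated and 1.982 CPM in untreated MALME-3M. The count of 4 lower with IFN-γ in MALME-3M was 2 without any 1 of its untreated replicates or treated replicate 2. The count of 1 higher there was 0 without untreated replicate 3 or treated replicates 1 or 3. In SK-MEL-5 the 2 higher became 1 without untreated replicate 3 or treated replicates 2 or 3, and the 2 lower became 1 without treated replicate 3.

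Of 16 tested amino acid transporters other than SLC7A5, 1 was called higher and 1 lower in SK-MEL-5 and 2 higher and 4 lower in MALME-3M. SLC7A11, the cystine importer that ATF4 can induce, fell in both lines, to 42.25 ± 1.01 against 64.99 ± 4.79 CPM in SK-MEL-5 (−0.62 ± 0.0793) and 12.01 ± 0.752 against 37.5 ± 4.35 CPM in MALME-3M (−1.65 ± 0.0878). Its fall was greater in MALME-3M (difference −1.02 ± 0.118, adjusted p = 1.92e-05). SLC7A8, which encodes LAT2, a relative of LAT1, rose in MALME-3M, to 66.75 ± 12.5 against 33.31 ± 1.13 CPM (1.00 ± 0.0987). The SLC7A8 change was greater in MALME-3M than in SK-MEL-5 (difference 0.76 ± 0.147, adjusted p = 0.00386). The cationic amino acid transporter SLC7A2 fell in MALME-3M (−0.40 ± 0.0799). Without treated MALME-3M replicate 1 the 2 higher there became 1, and with transcript estimates 0 transporters were called lower in either line.

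Of 20 aminoacyl-tRNA synthetases, which load tRNAs with amino acids, 2 were called higher and 0 lower in SK-MEL-5, and 2 higher and 6 lower in MALME-3M. WARS, the tryptophan enzyme and an interferon target, rose by 3.55 ± 0.0434 in SK-MEL-5 and by 4.15 ± 0.0448 in MALME-3M. Its rise was greater in MALME-3M (difference 0.60 ± 0.0559, adjusted p = 1.56e-06). CARS, the cysteine enzyme, rose in SK-MEL-5 (0.38 ± 0.06), and KARS, the lysine enzyme, in MALME-3M (0.32 ± 0.0557). Falls in MALME-3M were small, from −0.16 for LARS to −0.26 for IARS, and the count of 6 was 2 without untreated MALME-3M replicate 1, 3 without treated MALME-3M replicate 2 and 2 with transcript estimates. IDO1, the enzyme that opens the ring of tryptophan, had 171.6 ± 11.3 CPM in treated SK-MEL-5 cells and 2 counts in the 3 untreated libraries together. In treated MALME-3M cells it had 4.11 ± 1.07 CPM, and 0 counts in the untreated libraries.

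Of 14 tested further targets of ATF4 or CHOP, 2 were called higher and 2 lower in SK-MEL-5 and 1 higher and 3 lower in MALME-3M. The shares of all genes tested were 5.98% and 7.05% in SK-MEL-5 and 9.51% and 8.77% in MALME-3M. NUPR1, given above, is on this list too. DDR2, a collagen receptor, rose in both lines (0.34 ± 0.05 in SK-MEL-5 and 0.45 ± 0.052 in MALME-3M), VLDLR, a lipoprotein receptor, fell in both (−0.35 ± 0.0574 and −0.24 ± 0.0604, though 1.10 ± 0.448 in MALME-3M with transcript estimates), as did GADD45A, a growth arrest gene (−0.33 ± 0.103 and −0.61 ± 0.0996). XPOT, the tRNA exporter, fell in MALME-3M (−0.28 ± 0.0534). GDF15, a secreted stress cytokine, had changes of −0.01 ± 0.0565 in SK-MEL-5 and −0.07 ± 0.0562 in MALME-3M and was not called. The 2 lower in SK-MEL-5 became 1 without untreated replicates 2 or 3 or any 1 treated replicate, and with transcript estimates 0 of this list were called in either line. Of 16 genes of mTORC1 nutrient control, 0 were called higher and 1 lower in SK-MEL-5, and 2 were called in each direction in MALME-3M. SESN3, a relative of SESN2, fell in both lines (−0.72 ± 0.0873 and −0.37 ± 0.0838), RHEB, the activator of mTORC1, fell in MALME-3M (−0.18 ± 0.0455) and RPTOR, the scaffold of mTORC1, rose there (0.32 ± 0.0486, though −0.07 ± 0.193 with transcript estimates). For RPTOR the MALME-3M change minus the SK-MEL-5 change was 0.27 ± 0.0677 (adjusted p = 0.0282). The 2 higher in MALME-3M became 1 without untreated replicates 1 or 3 or treated replicate 3. Of 17 genes of the IRE1 and ATF6 arms of the unfolded protein response, which run beside the ATF4 arm, 0 were called higher and 1, DNAJC3, lower in SK-MEL-5 (−0.21 ± 0.0541). In MALME-3M 4 were called higher and 1 lower. Among them were HSPA5, the chaperone BiP (0.16 ± 0.0495), HERPUD1 (0.25 ± 0.0794) and EDEM1, which fell (−0.21 ± 0.0458). The count of 4 higher was 0 without untreated MALME-3M replicate 2, without treated MALME-3M replicate 3 or with upper-quartile scaling, and 1 or 2 without any other MALME-3M library and under each other scaling, filter, tool or table. In SK-MEL-5 the 1 lower was lost without untreated or treated replicate 3, and the 0 higher ran from 0 to 2 over the alternatives. Median log2 fold changes of the 8 lists ran from −0.12 to 0.29 in SK-MEL-5 and from −0.13 to 0.26 in MALME-3M.

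**Figure D4:**
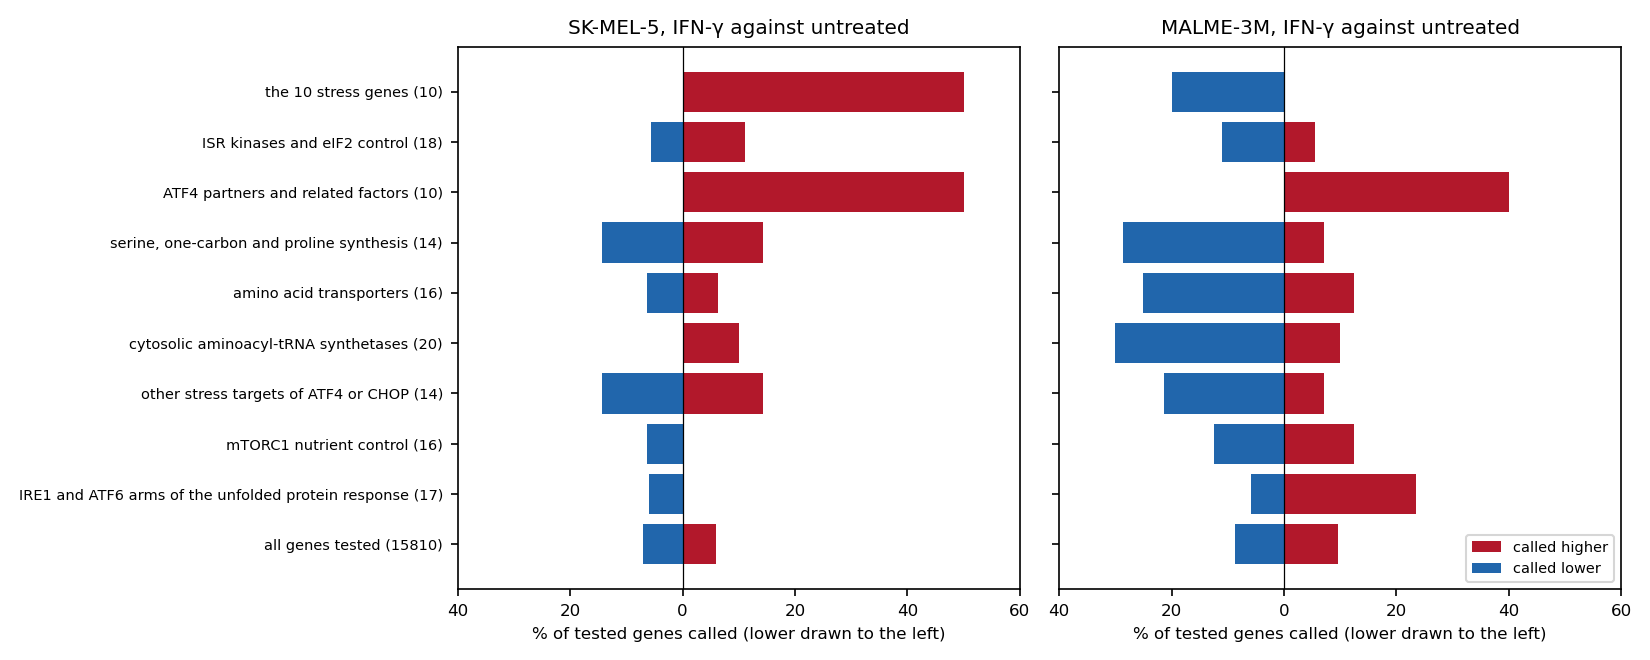
Share of tested genes called higher (red, to the right) and lower (blue, to the left) with IFN-γ for the 10 genes, the 8 pathway lists and all genes tested, in SK-MEL-5 and MALME-3M, with the number tested in brackets. The 10 genes have 5 called higher in SK-MEL-5 and 2 called lower in MALME-3M, beside 5.98% and 8.77% of all genes.

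Within a line the 10 genes varied together to different degrees. After the mean of each line was subtracted from log2 CPM, 42 of the 45 pairs of genes had a positive Pearson r over the 12 libraries, with a median of 0.50. The highest was 0.81 for CHAC1 and ASNS, followed by 0.78 for PSAT1 and PHGDH and for TRIB3 and SLC7A5, and the lowest was −0.11 for CHAC1 and PHGDH. These points share libraries, depth and the treatment itself, and are given without a test. The share of positive pairs and the median r over all genes tested were not computed, so these values have no background beside them. The following r values are the highest among all tested genes outside the 10, so their size owes to that choice and shows no link. For ATF4, whose change with IFN-γ was not called in either line, the most alike genes were MND1 (r = 0.94), CENPT (0.92) and TCEAL3 (0.90). Those most like TRIB3 were RRBP1 (0.96), RP13-735L24.1 (0.92) and GSTT2B (0.91). SH2D4A (0.97), UHMK1 (0.94) and ANKRD34B (0.94) were most like ASNS, and C11orf96 (0.95), ITSN1 (0.93) and FCGR2C (0.92) most like PSAT1. Some of these were hardly measured in 1 line. In treated and untreated SK-MEL-5, SH2D4A averaged 0.13 and 0.0212 CPM and GSTT2B 0.162 and 0.0486 CPM. In MALME-3M ANKRD34B averaged 0.0156 and 0.0 CPM.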

How the data were processed

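Total RNA of 12 cultures was sequenced (Pico V3 libraries, paired reads). For each library the authors deposited whole-number gene counts (HTSeq format per the file headers), and a transcript table with estimated counts and TPM (kallisto columns per the file headers). Tools named in the submitters' processing notes are STAR, HTSeq, kallisto, cutadapt and SAMtools, with the build hg38. The sources used here give neither annotation nor strand setting.

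The test on gene counts was that of edgeR 4.0.16 (R 4.3.3): filterByExpr with a minimum count of 10, TMM, and a quasi-likelihood fit with 1 mean per group over all 12 libraries (8 residual degrees of freedom), Benjamini-Hochberg adjustment over 15810 genes. Alternatives were DESeq2 1.42.0, other scalings, no filter, a fit of the 6 libraries compared, estimated counts summed by gene and rounded, and each library left out. The procedure was run on simulated counts with the same spread for every gene. The simulated folds were larger than most of those called with IFN-γ among the 10 genes, so the run does not cover those. Pairs of replicate libraries differed beyond sampling noise (chi-square per gene 6.35 to 19.3). HTSeq's summary lines stayed out of library sizes. Alignments reported as not unique came to 7.47 to 13.7 times the gene counts. Counts under the names of pseudogenes of ATF4, ASNS, PSAT1 and SLC7A5 summed to 0. Whether those names were among the 44700 counted genes was not checked, so the 0 does not show a lack of reads. Log2 CPM used a prior count of 2. Intervals are 95% intervals.

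The 10 genes and the lists were chosen with earlier results of these data known. Text names all 10, the 3 called genes of smallest p per list and line, the 3 most alike genes for each of ATF4, TRIB3, ASNS and PSAT1, and interferon check genes. Named beyond this rule after their values were seen are EIF2AK4, GDF15, SLC3A2 in MALME-3M, NUPR1 in MALME-3M, genes whose line difference was called, and CEBPB, ATF3, ALDH1L2, PSPH, MTHFD2, LARS, VLDLR and GADD45A in the line where they were not among the 3.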

Additional observations from a re-analysis of the deposited data

Results flagged for a closer look

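The change with IFN-γ differed between the lines, by the test of the difference itself, for 3 of the 10 genes. For ASNS the MALME-3M change minus the SK-MEL-5 change was −0.53 on the log2 scale. ASNS rose in SK-MEL-5, and its MALME-3M change of −0.10 was not called (adjusted p = 0.411). For PSAT1 the difference was −0.45, with a called fall in MALME-3M and a called rise in SK-MEL-5. For PHGDH it was −0.61, with a called fall in MALME-3M and no call in SK-MEL-5. With transcript estimated counts the difference stayed called for PSAT1 and not for ASNS (−0.48, adjusted p = 0.122) or PHGDH (−0.38, adjusted p = 0.472). Line, medium and dose cannot be told apart here. Groups of 3 libraries are too small for a test of single outlying libraries.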

How the results depend on the processing

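No paired analysis was possible because the labels give no replicate numbers. Of 890 alternative values of single log2 fold changes, 846 kept their direction and side of the threshold, 13 reversed, 13 gained and 18 lost a call. With transcript estimated counts the 10 genes had 2 called higher in SK-MEL-5, 1 lower in MALME-3M and 1 with a lower difference, and without the low-count filter 5 had a lower difference (main values 5, 2 and 3). With 1 library left out these counts ran from 3 to 6, 2 to 2 and 3 to 4, and between untreated lines from 2 to 3 higher and 2 to 4 lower. The 3 in SK-MEL-5 came without untreated SK-MEL-5 replicate 2. No called value of the 10 genes reversed. With transcript estimates uncalled values reversed for SESN2 (0.0239) and SLC7A5 (−0.32, adjusted p = 0.14, main 0.07) in MALME-3M and for ATF4 between untreated lines (0.0073). With 1 library left out TRIB3 ran from −0.0529 to 0.0844 and SLC7A5 from −0.0135 to 0.12 in MALME-3M, and PSAT1 between untreated lines from −0.0366 to 0.0477. The cause was not tested, though transcript estimates hold fewer reads. Over all genes, transcript estimates gave 396 higher and 176 lower in SK-MEL-5 (main 946 and 1114), 527 and 415 in MALME-3M (main 1504 and 1386), and 68 and 69 for the difference (422 and 283). They also gave 3743 lower between untreated lines (main 5877) and 3653 higher and 3758 lower between treated lines (main 5597 and 5749). The lower count in SK-MEL-5 was 655 without untreated SK-MEL-5 replicate 2 and 665 without treated SK-MEL-5 replicate 3. Higher differences numbered 275 and 240 without treated MALME-3M replicates 1 and 3, and lower ones 426 in DESeq2. In MALME-3M the called changes of VLDLR (main −0.24) and RPTOR (main 0.32) reversed with transcript estimates, to 1.10 (adjusted p = 0.201) and −0.07 (0.91). Of 576 alternative list counts, 89 moved, either by more than 1.5 times or to or from 0. Depth limits CHAC1 in MALME-3M most, at 9 to 33 counts per library.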
